A study of Homo sapiens with 12 samples.

Results

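This account follows 46 genes of the G1/S transition and of DNA replication in SW1736, a human cell line derived from anaplastic thyroid carcinoma, the most aggressive form of thyroid cancer. They were chosen as a fixed list of symbols and make up 46 of the 56832 symbols in the deposited count files. All 46 had enough reads to be tested. The study sequenced total RNA of 12 libraries in 4 groups of 3. Cells with the vector pCDH-TRB stably expressed thyroid hormone receptor beta (TRβ, called TRB here), and cells with pCDH-EV carried the empty vector (EV). Every culture was first kept for 24 h in medium without phenol red and with charcoal-stripped serum, which removes hormone. For the next 24 h it received either 10 nM T3 (triiodothyronine, the active thyroid hormone) or the sodium hydroxide vehicle. The groups are therefore EV vehicle, EV T3, TRB vehicle and TRB T3. Whether the stable lines are clones, and whether replicates came from separate cultures, is not given in the sources used here, so p-values measure the spread between these libraries, which may be technical.

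Cells copy their genome once per cycle. In G1, the origin recognition complex with CDC6 and CDT1 loads the MCM2 to MCM7 helicase onto origins. On entry into S phase, cyclin E with its kinase releases E2F factors from the RB family, CDC45 and the GINS complex switch the helicase on, and polymerases follow with the PCNA clamp. Many genes of this machinery are textbook E2F targets. By role the 46 genes are the helicase (MCM2, MCM3, MCM4, MCM5, MCM6 and MCM7), origin licensing (ORC1, ORC6, CDC6 and CDT1) and helicase activation (MCM10, CDC45, GINS1, GINS2, GINS3 and GINS4). Synthesis is covered by polymerases and primase (POLA1, POLA2, PRIM1, PRIM2, POLD1, POLE and POLE2), the clamp and its loader (PCNA, RFC2, RFC3, RFC4 and RFC5), and single-strand binding and flap processing (RPA1, RPA2, RPA3, FEN1 and LIG1). The rest are nucleotide supply (RRM1, RRM2, TYMS and TK1), G1/S regulators (CCNE1, CCNE2, E2F1 and MYBL2) and chromatin assembly and S-phase turnover (DTL, UHRF1, SLBP, CHAF1A and CHAF1B). TRβ is a nuclear receptor that binds DNA and changes transcription when T3 occupies it, and loss of its function is a known feature of aggressive thyroid tumours.

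Promoter windows were searched for the E2F core, TTTGGCG or TTTCGCG on either strand, since E2F sites are the element these genes are best known to share. RefSeq windows of the GRCh38.p14 build, from 250 bases before the start of transcription to 50 after it, were matched for 40 of the 46 genes. MCM4, MCM5, GINS4, RPA2, RPA3 and CCNE2 had none. The core was found in 17 of the 40 windows (42.5%), against 1120 of 35116 RefSeq windows of the same length (3.19%). It was in the windows of MCM2, MCM3, MCM6, MCM7, CDC6, CDT1, MCM10, CDC45, GINS1, POLA1, POLA2, POLE, POLE2, E2F1, DTL, UHRF1 and CHAF1A. The stretches below show how the core is placed in 2 genes that passed the test in a comparison described here, as the 170 bases before the start with the cores in capitals. MCM6 (chr2:135876444-135876613, minus strand) holds 4 matches that form 2 overlapping inverted pairs, at -152 and -147 and at -90 and -85 from the start. POLE (chr12:132687343-132687512, minus strand) holds 1 match on the opposite strand at -17, inside 23 bases that GENCODE release 29 assigns to an exon.
MCM6: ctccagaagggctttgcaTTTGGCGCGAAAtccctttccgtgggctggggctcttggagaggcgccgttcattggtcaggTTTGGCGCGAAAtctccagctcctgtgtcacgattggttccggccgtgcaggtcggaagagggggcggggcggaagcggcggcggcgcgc
POLE: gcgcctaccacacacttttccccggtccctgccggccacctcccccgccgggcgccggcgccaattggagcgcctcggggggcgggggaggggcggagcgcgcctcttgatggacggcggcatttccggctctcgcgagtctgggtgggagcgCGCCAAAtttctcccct
A match is a run of letters and not a bound site. The windows of TYMS, PRIM1, FEN1, CCNE1 and PCNA held no such run.

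In the GENCODE release 29 annotation of hg38, the genes named most often below lie at chr6:52264009-52284881 (MCM3, minus strand), chr2:135839626-135876426 (MCM6, minus strand), chr22:35400063-35425430 (MCM5), chr18:657604-673578 (TYMS), chr19:29811898-29824308 (CCNE1), chr12:56731596-56752373 (PRIM1, minus strand), chr11:61792637-61797244 (FEN1) and chr20:5114953-5126626 (PCNA, minus strand). Counts are over whole genes. Exons of another gene overlap those of 20 of the 46 genes, on the opposite strand for 16. For TYMS these are ENOSF1 and TYMSOS, over 1150 bases, for PRIM1 HSD17B6 and NACA among others, over 527 bases, and for FEN1 TMEM258 and FADS2, over 215 bases. The strand setting of the counting is not given in the sources used here, so reads of such neighbours may be missing from these counts or included in them, and the values of these genes are uncertain to that extent. MCM3, MCM5, MCM6, CCNE1 and PCNA have no such overlap.

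Counts in genes ran from 3819306 in EV T3 replicate 3 to 13086717 in TRB T3 replicate 1, and the 46 genes took 0.2729% to 0.5005% of them. To check the labels, THRB, which encodes the receptor supplied by the vector, was measured first. It stood at 12.3 to 18.3 counts per 1000000 (CPM) in the 6 EV libraries, at 79.8 to 80.4 CPM in TRB vehicle, and at 322, 190 and 297 CPM in TRB T3. All 6 TRB libraries lay above all 6 EV libraries. Of the markers of the labelled tissue, TSHR and FOXE1 had no read in any library, TG reached 0.625 CPM at most and PAX8 lay between 0.72 and 6.98 CPM. The epithelial keratins KRT8 and KRT18 stood at 300 to 2210 CPM, while the keratin KRT7 had 1.98 to 11 CPM. The epithelial genes EPCAM and CDH1 stood at 317 to 1100 and 135 to 242 CPM, and the mesenchymal marker VIM at 0 to 1.51 CPM. Among the markers of blood and endothelial cells described here, LYZ stood at 778 to 1590 CPM, CD3E and HBB at 0, and PTPRC, PECAM1 and VWF at 0.253 CPM or less. LYZ ran from 803 to 982 CPM in TRB vehicle, 778 to 1590 in TRB T3, 1270 to 1460 in EV vehicle and 1130 to 1410 in EV T3, and its part in the results was not tested.

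TRB T3 replicate 2 stood apart, and most results below depend on it. Genes rich in G and C were low in it and genes poor in them were high. POLD1, the catalytic subunit of polymerase delta with 65% GC, had 1.98 CPM there against 70.5 and 79.9 CPM in replicates 1 and 3. TK1, at 62.8% GC, had 7.56 against 189 and 195 CPM, and CDT1, at 64.9% GC, had 2.34 against 54.5 and 59.1 CPM. In the other direction, CCNE2, at 36.9% GC, had 52.9 against 16.1 and 16.9 CPM, and RFC3, at 39.1% GC, had 112 against 37.1 and 33.1 CPM. Over the 46 genes, the deviation of this library from the other libraries of its group fell with GC content (Spearman's rho -0.904). Among the EV T3 libraries, replicate 2 deviated in the same direction (-0.833 over the 46 genes) and replicate 3 in the other (0.791). The SD of the 46 deviations was 0.374 and 0.347 in these libraries, against 1.701 in TRB T3 replicate 2. In EV vehicle, replicate 2 also fell with GC content (-0.771, SD 0.166). In TRB vehicle, replicate 2 (-0.213, SD 0.134) and replicate 3 (-0.257, SD 0.1) both fell. The rho of the other vehicle libraries ran from 0.208 to 0.53. Genes share a library's depth and composition, so these are descriptions. In TRB T3 replicate 2, 19.03% of everything counted was alignments that were not unique, the lowest share of the 12 libraries, and in EV T3 replicate 3 it was 91.95%, the highest. Each comparison is therefore given for all 12 libraries and for the 11 without TRB T3 replicate 2, in which TRB T3 has n = 2. A further fit of these 11 libraries with GC offsets, which take a smooth trend of each library against GC content out of the counts, is named where it changes a call.

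**Figure D1:**
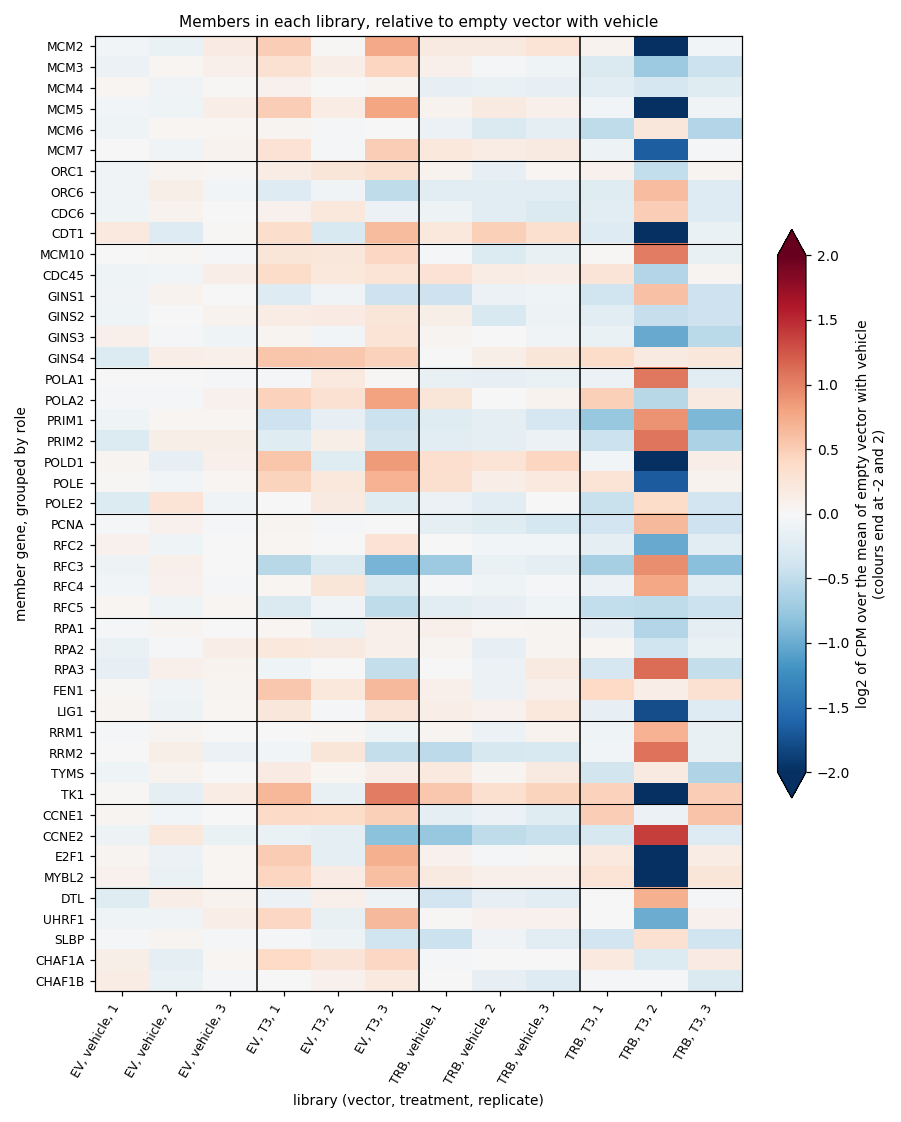
Heat map of the 46 genes (rows, grouped by role) in the 12 libraries (columns), coloured by the log2 ratio of CPM to the EV vehicle mean, with colours ending at -2 and 2. TRB T3 replicate 2 departs from replicates 1 and 3 of its group in both directions, while the vehicle libraries differ little from each other.

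**Figure D2:**
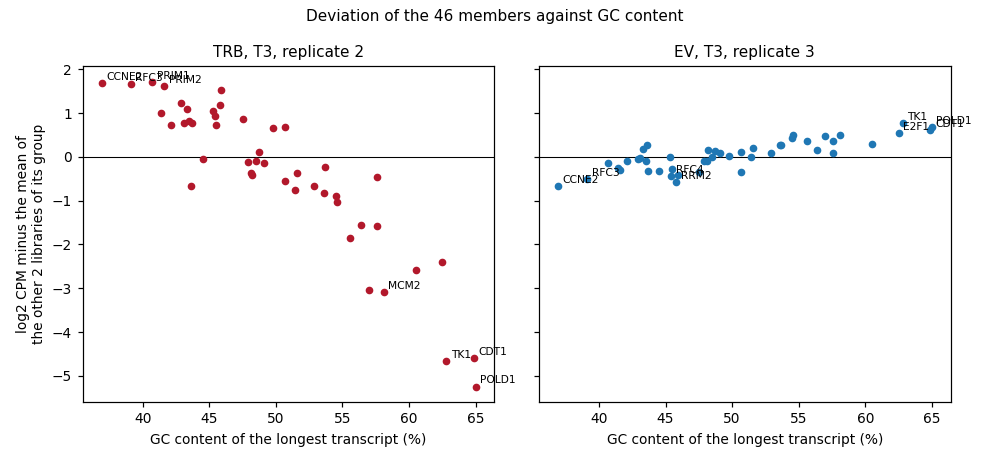
Deviation of each of the 46 genes (points) in TRB T3 replicate 2 (left) and EV T3 replicate 3 (right) from the other libraries of its group, on a log2 scale, against the GC percentage of its longest transcript. The deviation falls with GC content in the left panel (Spearman -0.904) and rises in the right panel (0.791).

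Treatment of TRB cells with T3 asked whether the replication programme responds to hormone when the receptor is supplied. Without TRB T3 replicate 2, cyclin E1 and the flap nuclease FEN1 rose, and thymidylate synthase, the primase subunit PRIM1 and the helicase subunits MCM3 and MCM6 fell. These were 6 of the 46 genes (13%), all with changes of less than 2-fold, in a comparison where 33.3% of 14825 genes passed, 18.1% as higher and 15.2% as lower. With all 12 libraries none of the 46 passed, against 14.7% of 14431 genes. An unadjusted p under 0.05 in edgeR was reached by 7 of the 46, against 4378 of the 14431 genes. DESeq2 called 2 of the 46 (CCNE1 higher and MCM3 lower), and its share of all genes is given under the alternatives below. The share of these genes that passed was below that of all genes in both fits. Setting replicate 2 aside, both T3 libraries lay above all vehicle libraries for 11 of the 46 (23.9%, against 33.5% of all genes) and below them for 17 (37%, against 32.2%). In RNA from whole cultures, fewer cells in S phase and less of a transcript per cell cannot be told apart.

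Among G1/S regulators, CCNE1, which activates CDK2 at the transition, stood at 21.2, 22.1 and 20.3 CPM in TRB vehicle and at 33.9, 22.1 and 35.6 CPM in TRB T3 (replicates 1, 2 and 3, the order used throughout). Replicates 1 and 3 lay well above the vehicle libraries and replicate 2 lay among them. The log2 fold change was 0.76 ± 0.108 (SE) with an adjusted p of 0.000157 in edgeR without replicate 2, and 0.53 ± 0.191 with an adjusted p of 0.0916 with it. CCNE2, the other cyclin E, had 12, 14.2 and 14.9 CPM with vehicle and 16.1, 52.9 and 16.9 CPM with T3. E2F1, a transcription factor of the S-phase genes, had 54.4, 49.6 and 51.6 CPM with vehicle and 58.7, 11 and 56.8 CPM with T3. MYBL2, which acts with the MuvB complex on cell cycle genes, had 133, 125 and 125 CPM with vehicle and 141, 23.2 and 139 CPM with T3. None of these 3 genes passed the test, and without replicate 2 their log2 fold changes were 0.31 for CCNE2, 0.20 for E2F1 and 0.18 for MYBL2, against 1.05, -0.29 and -0.33 with it.

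The helicase subunits were the role with the most genes that fell. MCM3 had 143, 131 and 125 CPM in TRB vehicle and 109, 80.6 and 98.4 CPM in TRB T3, where all 3 libraries were below the vehicle group. Its log2 fold change was -0.31 ± 0.111 (adjusted p 0.0446) without replicate 2 and -0.47 ± 0.16 (adjusted p 0.074) with it. MCM6 had 148, 132 and 141 CPM with vehicle and 113, 188 and 107 CPM with T3, so replicate 2 lay above the vehicle range and the other T3 libraries below it. Its log2 fold change was -0.30 ± 0.0952 (adjusted p 0.0268) without replicate 2 and -0.04 ± 0.207 with it. MCM2 had 267, 268 and 284 CPM with vehicle and 247, 27.9 and 228 CPM with T3, and MCM5 had 96.8, 104 and 98.5 against 89.1, 10.8 and 87.8 CPM. Their log2 fold changes of -0.15 and -0.13 without replicate 2 did not pass. All 6 subunits MCM2 to MCM7 had a negative log2 fold change in both fits, with a median of -0.18 without replicate 2 and -0.54 with it, against -0.01 and 0.01 over all genes, but on the 12 libraries MCM6 became slightly positive in DESeq2 and with its size factors (0.01 each), and also without TRB vehicle replicate 1 (0.01), TRB T3 replicate 1 (0.07) or TRB T3 replicate 3 (0.10).

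Among the other S-phase genes, TYMS, which makes thymidylate for DNA, had the lowest log2 fold change of those that fell. It had 97.5, 88.1 and 96.4 CPM in TRB vehicle and 65.9, 96.2 and 56.3 CPM in TRB T3, where replicates 1 and 3 were below every vehicle library and replicate 2 was not. The log2 fold change was -0.57 ± 0.107 (adjusted p 0.00128) without replicate 2 and -0.37 ± 0.194 (adjusted p 0.222) with it. The primase subunit PRIM1, which starts each new DNA strand with an RNA primer, had 42.6, 44.4 and 39.8 CPM with vehicle and 29.9, 93.7 and 27 CPM with T3. It is 40.7% GC, and its direction turned on replicate 2, with a log2 fold change of -0.52 ± 0.126 (adjusted p 0.00681) without that library and 0.24 ± 0.394 with it. FEN1, which trims flaps of Okazaki fragments, had 93.9, 80.6 and 93.5 CPM with vehicle and 115, 95.5 and 108 CPM with T3. Every T3 library exceeded every vehicle library, and the log2 fold change was 0.37 ± 0.126 (adjusted p 0.0387) without replicate 2 and 0.25 ± 0.162 (adjusted p 0.311) with it. The ligase gene LIG1, at -0.31 and an adjusted p of 0.0502 without replicate 2, lay just outside the threshold.

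PCNA and 3 licensing genes did not pass when TRB cells received T3. The clamp gene PCNA had 155, 149 and 138 CPM with vehicle and 135, 275 and 132 CPM with T3, and its 95% interval without replicate 2 ran from -0.30 to 0.11 on the log2 scale. ORC1, the largest subunit of the origin recognition complex, had 34.9, 29.6 and 34 CPM with vehicle and 35.4, 23.7 and 34.5 CPM with T3 (interval -0.10 to 0.38). CDC6 had 82.5, 76.1 and 72.9 CPM with vehicle and 76.8, 125 and 73.8 CPM with T3 (interval -0.24 to 0.27). For its partner CDT1 the values were 75.4, 90.4 and 80.7 CPM with vehicle and 54.5, 2.34 and 59.1 CPM with T3, all lower, and the interval from -0.96 to -0.02 went with an adjusted p of 0.105. Without replicate 2 the interval of each of the 46 genes lay within 2-fold in either direction, and with all 12 libraries this held for 28 of them.

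Helicase activation and the remaining roles showed no further gene past the threshold in TRB cells. MCM10, which helps to activate the helicase, had 47.1, 39.9 and 43.2 CPM with vehicle and 48.8, 97.3 and 43.1 CPM with T3, and CDC45 had 50.8, 45.8 and 45.7 against 49.5, 27.5 and 43 CPM. POLE2, a subunit of polymerase epsilon, had 18.6, 17.1 and 20.3 CPM with vehicle and 14.8, 25.9 and 15.4 CPM with T3. RRM2, the regulated subunit of ribonucleotide reductase, had 86.7, 99.1 and 99.9 CPM with vehicle and 119, 263 and 112 CPM with T3, and was the single gene of the 46 that passed when TRB T3 replicate 3 was left out in place of replicate 2 (log2 fold change 1.00, adjusted p 0.0459). The share of all genes that passed in that fit is not given here, so this call cannot be set against it. Without replicate 2 the log2 fold change of RRM2 was 0.33. TK1, which salvages thymidine, had 201, 173 and 188 CPM with vehicle and 189, 7.56 and 195 CPM with T3. UHRF1, which reads newly replicated DNA for methylation, had 62.3, 64.8 and 65.2 against 60.9, 30.6 and 64.7 CPM, and SLBP, which binds histone mRNA, had 64.3, 83.3 and 74 against 66.4, 107 and 66 CPM. With replicate 2 set aside, the T3 and vehicle ranges of UHRF1 and SLBP overlapped. Among the genes not described one by one in TRB cells, the log2 fold changes without replicate 2 ran from -0.39 for RPA3 to 0.29 for POLA2. With GC offsets on the 11 libraries, 19 of the 46 genes passed in this comparison, 6 higher and 13 lower, where 53.6% of genes passed, 28.3% as higher and 25.3% as lower. They included all 6 genes named above, and added CDT1, MCM7, LIG1, POLD1, PRIM2, RFC3, RFC5, RPA1 and RPA3 among the lower and CCNE2, RRM2, DTL and POLA2 among the higher.

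**Figure D3:**
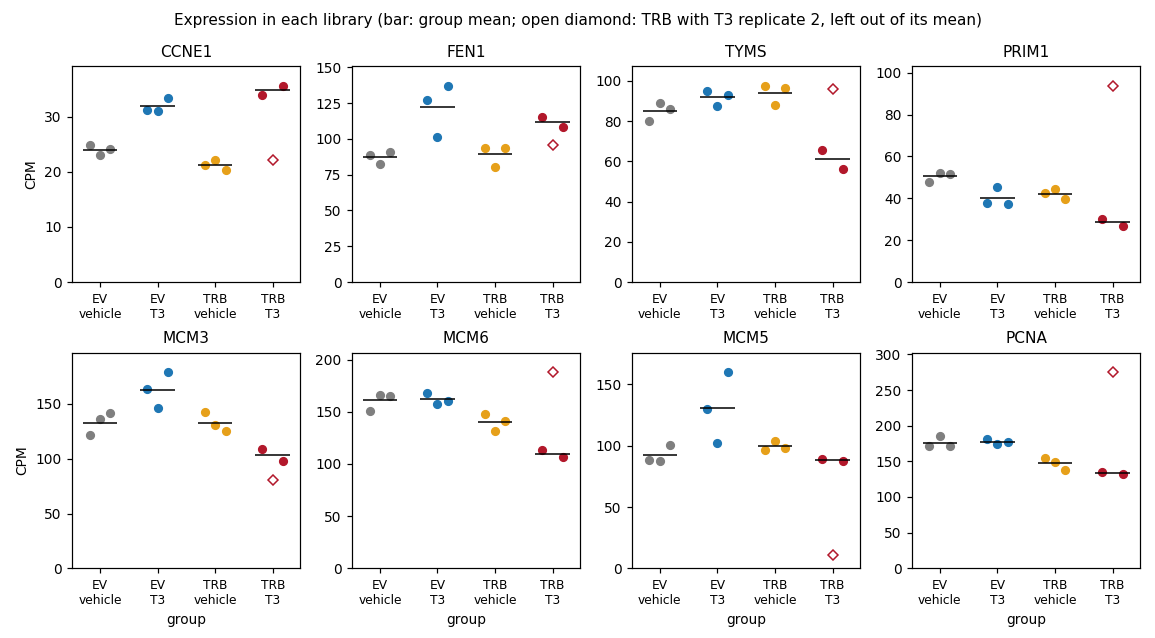
CPM in each library for 8 genes, with a bar at the group mean and TRB T3 replicate 2 as an open diamond left out of its mean. CCNE1 and FEN1 were higher with T3 in both kinds of cell, and TYMS, MCM3 and MCM6 were lowest in TRB T3 replicates 1 and 3 apart from the open diamonds.

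T3 in EV cells measured the response to hormone without a supplied receptor. Here 7 genes rose and none fell when TRB T3 replicate 2 was left out of the shared estimate of spread: POLA2, GINS4, MCM5, FEN1, POLE, CCNE1 and MYBL2. That is 15.2% of the 46, where 3.76% of all genes passed as higher, 3.57% as lower and 7.33% in either direction. All 3 T3 libraries lay above all 3 vehicle libraries for 14 of the 46 (30.4%, against 11.5% of all genes) and below them for 2 (4.35%, against 14.8%). In the 12-library fit no gene of the 46 passed, against 0.229% of genes. An unadjusted p under 0.05 in edgeR was reached by 2 of the 46, against 881 of 14431 genes, and DESeq2 called none of the 46.

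POLA2, the accessory subunit of polymerase alpha, had 48.6, 48.9 and 53.2 CPM in EV vehicle and 69.1, 62.2 and 88.1 CPM in EV T3. GINS4, part of the active helicase, had 11.5, 15.2 and 14.9 against 20.5, 20.2 and 19.2 CPM, and MCM5 had 88.6, 87.2 and 101 against 130, 102 and 160 CPM. In each of these 3 genes all T3 libraries were above all vehicle libraries. Their log2 fold changes in the fit of 11 libraries were 0.53 ± 0.133 for POLA2 (adjusted p 0.0353), 0.51 ± 0.133 for GINS4 (0.0398) and 0.50 ± 0.133 for MCM5 (0.0444). FEN1 had 88.6, 82.8 and 90.8 CPM with vehicle and 127, 101 and 137 CPM with T3, and CCNE1 had 24.8, 23 and 24.1 against 31.3, 31 and 33.4 CPM. Their log2 fold changes were 0.47 ± 0.115 (adjusted p 0.0311) and 0.42 ± 0.102 (adjusted p 0.0326), and both genes also rose in TRB cells. MYBL2 had 124, 107 and 120 CPM with vehicle and 157, 131 and 177 CPM with T3, a log2 fold change of 0.41 ± 0.109 (adjusted p 0.0436), and POLE, the catalytic subunit of polymerase epsilon, changed by 0.46 ± 0.115 (adjusted p 0.0344).

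Other genes in EV cells had higher means with T3 but did not pass. TK1 had 140, 120 and 153 CPM in EV vehicle and 218, 124 and 280 CPM in EV T3, and E2F1 had 53.2, 47.2 and 52.5 against 72.5, 45.2 and 83.3 CPM. MCM2 had 227, 216 and 264 against 331, 241 and 397 CPM, CDT1 had 74.3, 54.3 and 66.2 against 83, 52.5 and 101 CPM, and UHRF1 had 57.8, 58.5 and 67.1 against 81.2, 55.3 and 95.4 CPM. In all 5 genes EV T3 replicate 3 was the highest and replicate 2 the lowest T3 library, and their transcripts are 54.6% to 64.9% GC. Lower means with T3, also short of the threshold, were seen for CCNE2 with 18.9, 23.3 and 18.4 against 18.4, 17.9 and 11.4 CPM, RRM2 with 123, 135 and 114 against 120, 146 and 88.8 CPM, and SLBP with 85.8, 90.2 and 85.1 against 86, 80.9 and 65.8 CPM. RFC3 (55.2, 63.1 and 58.8 against 40.1, 48.3 and 31.1 CPM) and PRIM1 (47.6, 52.1 and 51.7 against 38, 45.3 and 37.5 CPM) were lower in every T3 library and did not pass. Their log2 fold changes were -0.55 and -0.32 in the 11-library fit, and -0.24 and -0.09 there with GC offsets. Values close to equal in the T3 and vehicle groups were found for PCNA (172, 186 and 171 against 182, 174 and 177 CPM), CDC6 (83.2, 93.2 and 89.5 against 94, 102 and 81.5 CPM) and POLE2 (16.7, 24.4 and 19.1 against 19.9, 22.7 and 17 CPM). ORC1, MCM10 and CDC45 were higher in every T3 library, with 31.5, 34.5 and 33.7 against 36.9, 39.4 and 41.5 CPM for ORC1, 48.2, 49 and 47 against 56.6, 56.3 and 63.8 CPM for MCM10, and 38.9, 40.1 and 45.4 against 53.6, 48 and 50.4 CPM for CDC45, yet their adjusted p values were 0.16, 0.094 and 0.109.

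GC content moved with these values. In the 11-library fit the T3 effect in EV cells was larger in genes richer in GC, with a Spearman rho of 0.783 over the 46 genes and 0.614 over all 12334 genes with a GC value. What part it had in them was not tested beyond the offsets. With GC offsets, 6 genes rose (6.63% of genes passed as higher and 16.7% in either direction): MCM5, POLA2, GINS4, POLE and FEN1 still passed, with smaller log2 fold changes of 0.25, 0.32, 0.45, 0.24 and 0.29, while CCNE1 and MYBL2 no longer passed and MCM10 was added at 0.42 (adjusted p 0.0116). When EV T3 replicate 3 was left out along with TRB T3 replicate 2, GINS4 (0.54, adjusted p 0.0443) and CCNE1 (0.40, adjusted p 0.0495) were the 2 genes that still passed, where 5.08% of all genes did.

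TRB and EV cells were compared in vehicle, which sets the supplied receptor without added T3 against the empty vector. None of the 46 genes passed, where 0.0208% of genes passed with 12 libraries and 0.0742% with 11. An unadjusted p under 0.05 in edgeR was reached by 0 and 5 of the 46, against 213 of 14431 and 1837 of 14825 genes. DESeq2, run on 12 libraries, called none. In the fit of 11 libraries, all TRB vehicle libraries lay below all EV vehicle libraries for 13 of the 46 (28.3%, against 18.8% of all genes). They lay above them for 11 (23.9%, against 17%). In the fit of 12 these counts were 14 (30.4%, against 20.5%) and 9 (19.6%, against 15.9%). Fitted without the T3 libraries, so that the spread came from the 6 vehicle libraries alone, POLD1 (0.38, adjusted p 0.029) and TK1 (0.47, adjusted p 0.0216) were higher in TRB cells and RRM2 (-0.36, adjusted p 0.0306) and CCNE2 (-0.54, adjusted p 0.0275) were lower, in a fit where 11.2% of genes passed. In the 11-library fit the log2 differences of the 46 genes in vehicle also increased with GC content (Spearman's rho 0.78), and with GC offsets none passed (0.868% of genes).

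TRB and EV cells were also compared under T3, where hormone and supplied receptor were both present in the TRB group. With TRB T3 replicate 2 left out, 7 genes were lower in TRB cells (15.2% of the 46, against 7.9% of all genes passing as lower and 19.7% in either direction), and none was higher (11.8% of genes). They were MCM3, MCM5 and MCM6 of the helicase, TYMS, PRIM1, GINS2 and PCNA. With all 12 libraries, MCM3 alone passed as lower in edgeR, where 6.68% of genes passed and 2.55% passed as lower. DESeq2 on the same libraries called MCM3, MCM4 (-0.27, adjusted p 0.016) and GINS2 (-0.49, adjusted p 0.0412) as lower, where 13.2% of genes passed. The median of the 46 genes was -0.18 on the log2 scale without replicate 2 against 0.02 over all genes, and 41 of the 46 had a negative value. Both TRB libraries lay below all EV libraries for 16 of the 46 (34.8%, against 17.6% of all genes) and above them for 1 (2.17%, against 23.2%).

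MCM3 had 164, 146 and 179 CPM in EV T3 and 109, 80.6 and 98.4 CPM in TRB T3, with no overlap of the groups. It was lower in TRB cells by -0.59 ± 0.112 on the log2 scale (adjusted p 0.00248) in 11 libraries and by -0.77 ± 0.161 (adjusted p 0.018) in 12. In the 12-library fit this call was lost when EV T3 replicate 1 or EV T3 replicate 3 was left out. MCM6 had 168, 158 and 160 CPM in EV T3 and 113, 188 and 107 CPM in TRB T3, and TYMS had 95.1, 87.5 and 92.9 against 65.9, 96.2 and 56.3 CPM. In both genes TRB T3 replicates 1 and 3 were below every EV T3 library and replicate 2 was above them. Without replicate 2 the log2 differences were -0.50 ± 0.0962 for MCM6 (adjusted p 0.0028) and -0.52 ± 0.108 for TYMS (adjusted p 0.00438). The other 4 genes differed by -0.49 for MCM5, -0.45 for PRIM1, -0.43 for GINS2 and -0.35 for PCNA, with adjusted p values of 0.0356, 0.0276, 0.0447 and 0.0196. PRIM1 and PCNA had the opposite sign with all 12 libraries, at 0.31 and 0.02.

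By role, all 6 MCM subunits, all 6 genes of helicase activation, all 7 polymerase and primase genes, all 5 clamp and clamp loader genes and all 5 genes of single-strand binding and flap processing were negative in TRB against EV cells with T3, in the fit of 11 libraries. So were 3 of 4 genes of origin licensing, 3 of 4 of nucleotide supply and 4 of 5 of chromatin assembly and S-phase turnover. Over all genes 7192 of 14825 were negative. In the 12-library fit the negative counts were 6 of 6, 4 of 6, 4 of 7, 2 of 5, 4 of 5, 3 of 4, 2 of 4 and 3 of 5 in the same order, and 7277 of 14431 over all genes. In vehicle they were 2 of 6, 3 of 6, 4 of 7, 5 of 5, 1 of 5, 3 of 4, 1 of 4 and 3 of 5, and 7501 of 14825 over all genes, in the fit of 11 libraries. There the clamp and clamp loader genes had a median of -0.14 in vehicle and also with T3. PCNA had 155, 149 and 138 CPM in TRB vehicle and 172, 186 and 171 CPM in EV vehicle. With T3, the G1/S regulators had CCNE1 at 0.19, CCNE2 at 0.08, MYBL2 at -0.08 and E2F1 at -0.13 in 11 libraries. In 12 libraries they had -0.06, 0.83, -0.62 and -0.66, and none passed in either fit. Spearman's rho of the log2 differences with GC content over the 46 genes was -0.066 in 11 libraries and -0.826 in 12. With GC offsets 17 genes were lower and none higher (15.4% of genes passed as lower, 23.7% as higher and 39.1% in either direction), and these 17 held all 7. The 10 added were MCM2, MCM7, CDC6, CDT1, PRIM2, POLD1, POLE, POLE2, RFC2 and LIG1. Without EV T3 replicate 3 as well, and without offsets, 6 genes were lower (22.9% of all genes passed), with MCM5 and GINS2 no longer past the threshold and CDC6 added. GC offsets on all 12 libraries gave 13 lower genes of the 46 (12.7% of genes passed as lower) but moved the median of all genes itself to -0.11 in this comparison and to -0.14 for T3 in TRB cells.

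**Figure D4:**
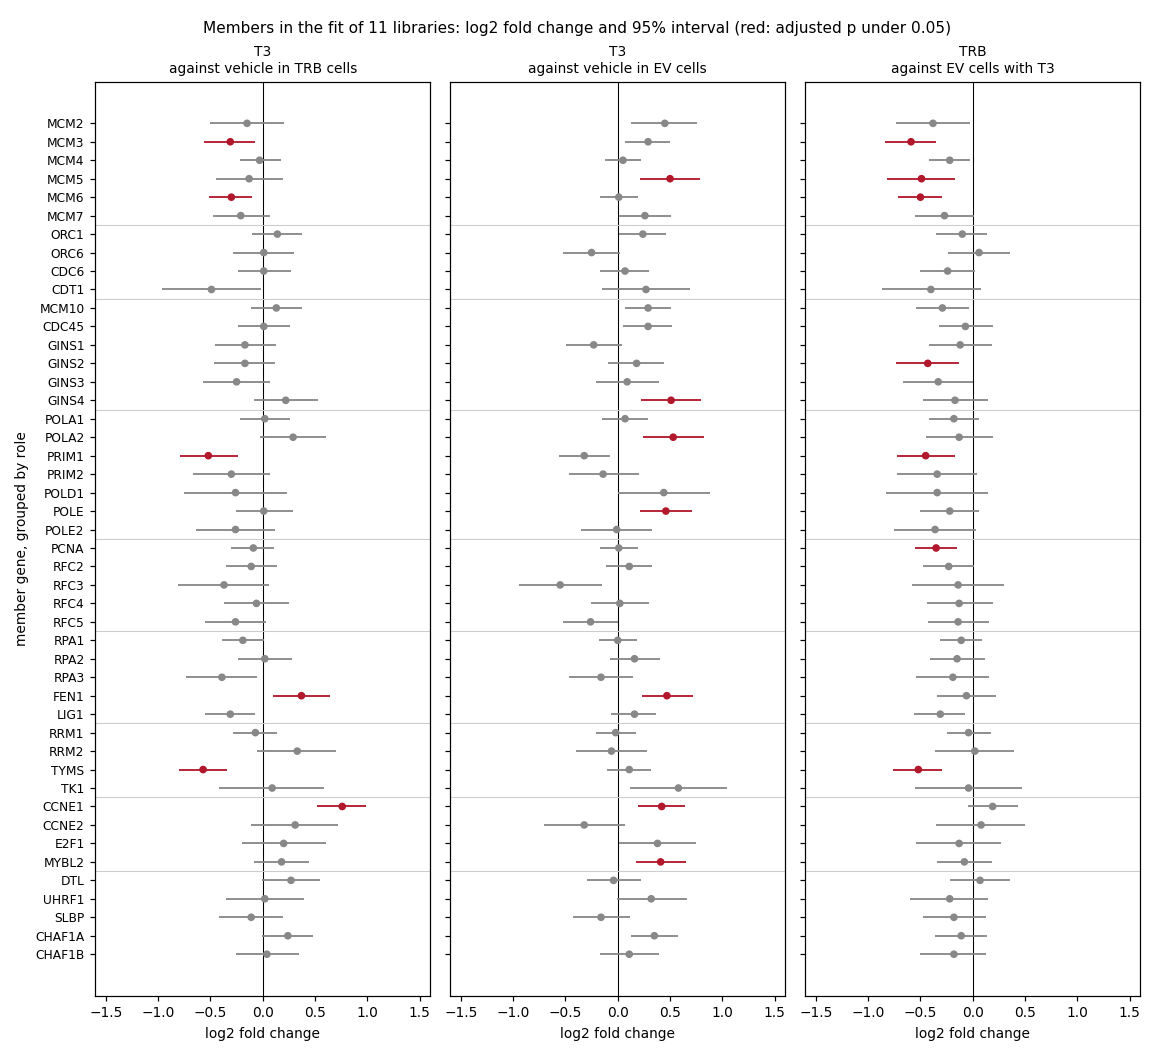
Log2 fold change (points) and 95% interval (lines) of the 46 genes in 3 comparisons in the fit of 11 libraries, with genes past the threshold in red and roles separated by grey lines. Most points lie to the left of 0 in the right panel, TRB against EV cells with T3, and MCM2 to MCM7 lie to the right of 0 in the middle panel, where 5 of the 6 did so with GC offsets or with no filter on low counts.

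The difference of the T3 response between TRB and EV cells was tested as an interaction. Without TRB T3 replicate 2, TYMS and MCM3 responded differently, both more negatively in TRB cells (2 of 46, or 4.35%, against 6.68% of genes passing as lower and 15.2% in either direction). For TYMS the difference was -0.68 ± 0.143 (adjusted p 0.00742), from 0.11 in EV cells and -0.57 in TRB cells. For MCM3 it was -0.60 ± 0.148 (adjusted p 0.0169), from 0.29 in EV cells and -0.31 in TRB cells. MCM5, with a difference of -0.62, had an adjusted p of 0.0539. All 6 MCM subunits had a negative difference in both fits, although MCM6 turned positive where TRB T3 replicate 1 or 3 was left out of the 12. With all 12 libraries none of the 46 passed, against 2.59% of genes, while DESeq2 called MCM3 (-0.76, adjusted p 0.017). An unadjusted p under 0.05 in edgeR was reached by 2 of the 46, against 2879 of 14431 genes. With GC offsets on 11 libraries 12 genes passed (33.2% of genes, 13.4% as lower and 19.8% as higher), namely TYMS, MCM2, MCM3, MCM5, MCM6, MCM7, CDT1, PRIM1, POLD1, POLE and LIG1 as lower and CCNE1 as higher (0.46, adjusted p 0.0121). Before the offsets these differences fell with GC content over the 46 genes (Spearman's rho -0.587).

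The T3 effects in the 2 kinds of cell share no library and can be set side by side. In the fit of 11 libraries they had a Spearman correlation of 0.374 over the 46 genes, and 27 genes had the same sign. With TRB T3 replicate 2 included the correlation was -0.498 and 12 genes had the same sign. CCNE1 and FEN1 passed in both kinds of cell, and the tested difference between their responses did not pass (0.34 with an adjusted p of 0.144 for CCNE1, and -0.11 with 0.712 for FEN1). The 95% interval of that difference ran from 0.02 to 0.67 for CCNE1 and from -0.48 to 0.27 for FEN1.

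**Figure D5:**
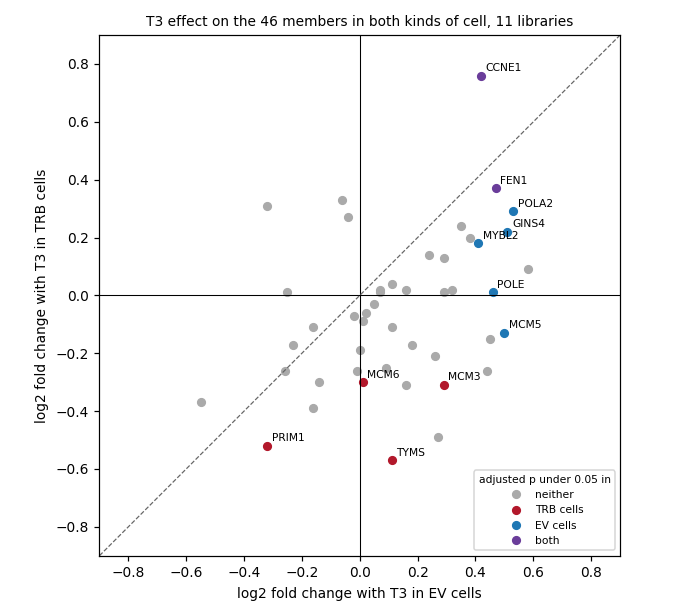
Log2 fold change with T3 in EV cells (x axis) against TRB cells (y axis) for the 46 genes in the fit of 11 libraries, coloured by the kind of cell in which a gene passed the threshold, with a dashed line where both effects are equal. CCNE1 and FEN1 lie to the upper right, and MCM3, MCM5 and TYMS lie to the right of 0 and below it.

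Regulators around the G1/S transition were read from lists outside the 46. CDKN1A, the p21 inhibitor of cyclin-dependent kinases, had 16, 17.1 and 15.1 CPM in TRB vehicle and 42.3, 7.56 and 49.3 CPM in TRB T3, so replicates 1 and 3 were high and replicate 2 was the lowest of the 12 libraries. Without replicate 2 its log2 fold change was 1.56 ± 0.176 in TRB cells (adjusted p 2.22e-05) and 0.69 ± 0.175 in EV cells (adjusted p 0.0376), and the difference of 0.87 passed (adjusted p 0.034). In 12 libraries the change in TRB cells was 1.05 ± 0.502 (adjusted p 0.187). The list of 6 CDK inhibitors had 2 higher (CDKN1A and CDKN1C) and 1 lower (CDKN2B, -0.88) in TRB cells without replicate 2, where 33.3% of all genes passed, and 0 in either direction with it (14.7% of all genes), while CDKN1B was at 0.04.

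Of 18 tested G1 cyclins, kinases, E2F partners and RB family genes, 2 rose and 3 fell with T3 in TRB cells in 11 libraries, where 18.1% of all genes passed as higher and 15.2% as lower. In 12 libraries 1 rose and 2 fell, where 14.7% of all genes passed. CDK6, a kinase partner of D cyclins, had 120, 158 and 155 CPM in TRB vehicle and 54.9, 111 and 53.7 CPM in TRB T3, all lower. Its log2 fold change was -1.36 ± 0.194 (adjusted p 0.000156) without replicate 2 and -0.98 ± 0.293 (adjusted p 0.0473) with it. CDK4, also a kinase partner of D cyclins, had 193, 169 and 184 CPM in TRB vehicle and 93.7, 34 and 90.9 CPM in TRB T3, all lower. CCND1, cyclin D1, had 322, 369 and 350 against 520, 699 and 555 CPM, and rose by 0.68 ± 0.102 (adjusted p 0.000235) and 0.77 ± 0.15 (adjusted p 0.00604) in the fits of 11 and 12. E2F5 fell by 1.07 on the log2 scale (adjusted p 0.00168) in 11 libraries, while the repressors E2F7 and E2F8 were at 0.00 and -0.08. CDK6 also fell in EV cells in the fit of 11 libraries (-0.80, adjusted p 0.016), but not past the threshold with 12 (-0.82, adjusted p 0.605).

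The 35 further replication genes outside the 46 had 2 higher and 5 lower with T3 in TRB cells without replicate 2, where 33.3% of all genes passed, and 1 higher and 1 lower with it, where 14.7% did. The median of the list was -0.10 without that library and 0.32 with it. CDCA7, a chromatin factor, had 105, 121 and 126 CPM in TRB vehicle and 51.9, 99.8 and 54.7 CPM in TRB T3. POLE4, a small subunit of polymerase epsilon, had 17.7, 15.3 and 17.8 against 7.81, 5.58 and 8.24 CPM. They had the largest changes of the 7 genes of the list that passed without replicate 2, with log2 fold changes of -1.09 (adjusted p 6.74e-05) and -1.03 (adjusted p 0.00339). None of the 35 passed with T3 in EV cells.

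Genes of G2 and mitosis were read as a list of 39. With T3 in TRB cells, 18 of the 39 fell and 1 (AURKB) rose in the fit of 11 libraries, with a median of -0.38, where 15.2% of all genes passed as lower and the median of the 46 replication genes was -0.07. ESPL1, the separase that opens cohesin rings, had 82.3, 73.2 and 79.1 CPM in TRB vehicle and 43.1, 3.42 and 39.5 CPM in TRB T3. Without replicate 2 its log2 fold change was -0.87 ± 0.158 (adjusted p 0.000982), and that of CDCA8, a chromosomal passenger protein, was -0.76 ± 0.13 (adjusted p 0.000656). CCNB1, the mitotic cyclin B1, had 159, 148 and 148 against 113, 137 and 112 CPM, and fell by 0.38 on the log2 scale (adjusted p 0.0107). MKI67, the common proliferation marker, had 661, 618 and 594 against 755, 812 and 597 CPM and did not pass, at 0.16. In 12 libraries 3 of the 39 fell, where 6.2% of all genes passed as lower, and the median of the list was 0.08, so its sign turned on replicate 2. No test compared the mitotic list with the replication genes.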

How the data were processed

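Raw counts of reads per gene symbol were taken as the authors deposited them, 1 file per library for 12 libraries. Per the labels' protocols, RNA with an integrity number above 7 was extracted with Trizol and 1 µg was used per library. Per the submitters' processing notes the tools were CASAVA 1.7, STAR 2.7, HTSeq 0.10 and DESeq2, with build hg38. The annotation and strand setting are not given in the sources used here. The 5 closing lines of each count file, which name no gene, were left out. A deposited table of normalized values with 11 per-sample columns was not used.

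Counts of all genes were tested with edgeR 4.0.16 (R 4.3.3, limma 3.58.1): filterByExpr with a minimum count of 10 and a minimum total of 15, TMM scaling, and two-sided quasi-likelihood tests in 1 model of 4 groups with 5 contrasts. P-values were adjusted over all genes by Benjamini-Hochberg with a threshold of 0.05. SEs were computed from the log2 fold change and F. CPM are counts per 1000000 after TMM scaling of 12 libraries. The same fit without TRB T3 replicate 2 is the 11-library fit. GC offsets were fitted per library as a spline (5 degrees of freedom) of log counts on the GC content of the longest GENCODE release 29 transcript of a symbol, which left 12334 genes in the 11-library fit and 12157 in the 12. Total counts in genes ran from 3819306 to 13086717 per library. Promoter windows came from RefSeq (GRCh38.p14).

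Alternatives were the size factors of DESeq2, DESeq2 1.42.0, no filter, the compared groups alone, a replicate block, each library left out, and GC offsets. Leaving out TRB T3 replicate 2 with EV T3 replicate 3, and GC offsets in the compared groups alone, were chosen after seeing the data. The 46 genes, the other lists and the tests were chosen with earlier results of these data known. Values in every library are given for 18 genes chosen for their roles and for the 3 most positive and 3 most negative genes past the threshold in a contrast. Of the other lists, named genes are fixed regulators and the 2 with the largest change past the threshold. CDK4, CDKN1C and AURKB were named, and RFC3 was described in EV cells, after their values were seen. The result for 1 marker gene is not reported here.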

Additional observations from a re-analysis of the deposited data

Results flagged for a closer look

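The T3 response differed between TRB and EV cells for MCM3 and TYMS by the test of the difference itself, in the fit without TRB T3 replicate 2. The difference was -0.60 on the log2 scale for MCM3, with an adjusted p of 0.0169 in edgeR, and -0.68 for TYMS, with an adjusted p of 0.00742. With all 12 libraries the differences were -0.77 and -0.48, with adjusted p values of 0.117 and 0.32. For both genes TRB T3 replicates 1 and 3 lay below every EV T3 library. TRB T3 replicate 2 was below them for MCM3 and above them for TYMS.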

How the results depend on the processing

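Of the 46 genes, 0 passed with T3 in TRB cells, 0 with T3 in EV cells, 0 between cells in vehicle, 1 between cells with T3 and 0 for the difference of the T3 responses, in edgeR with all 12 libraries. Leaving out 1 library at a time gave 0 to 6, 0 to 7, 0, 0 to 7 and 0 to 2, with each highest count reached without TRB T3 replicate 2. In the same order, where the count moved, GC offsets gave 13 (T3 in TRB cells), 13 (between cells with T3) and 2 (difference), where 37.8%, 22.3% and 13.1% of all genes passed. GC offsets without TRB T3 replicate 2 gave 19, 6 (T3 in EV cells), 17 and 12 (53.6%, 16.7%, 39.1% and 33.2% of all genes). GC offsets in the compared groups alone gave 2 with T3 in TRB cells and 5 with T3 in EV cells (19.5% and 14.2% of all genes passed). Leaving out TRB T3 replicate 2 and EV T3 replicate 3 together gave 10, 2, 6 and 2 (40.8%, 5.08%, 22.9% and 17.2% of all genes). DESeq2 gave 2 with T3 in TRB cells, 3 between cells with T3 and 1 for the difference (21.5%, 13.2% and 7.08% of all genes). The compared groups alone gave 4 in vehicle (11.2% of all genes) and 0 between cells with T3 (0.241%), and no filter gave 0 between cells with T3 (2.19%). The cause was not tested.

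The replicate block gave the same counts as the fit without it (0, 0, 0, 1 and 0), and with GC offsets it gave 14, 11 and 2 where GC offsets alone gave 13, 13 and 2. With GC offsets alone 37.8%, 22.3% and 13.1% of all genes passed. The shares of all genes with the block are not given here, so its counts cannot be set against them. Deviations from the group means, over genes, correlated between -0.19 and 0.728 in the 18 pairs of samples with the same number, 12 of them above 0.1. The pairs of replicate 2 ran from 0.116 to 0.728, so libraries of that number shared part of their deviation. Pairs of replicate 1 ran from -0.099 to 0.275 and those of replicate 3 from -0.19 to 0.636. Whether the numbers mark samples handled together is not given in the sources used here. The main fit did not pair the samples.

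Between the fits of 12 and 11 libraries the log2 fold change changed sign for 18 of the 46 genes for T3 in TRB cells, 1 for T3 in EV cells, 3 in vehicle, 12 between cells with T3 and 10 for the difference. Of the 22 values of genes past the threshold in either fit, followed through every alternative, those of MCM6, PRIM1 and PCNA changed sign. With 1 library left out at a time, MCM6 and PRIM1 ranged from -0.30 to 0.10 and from -0.52 to 0.53 for T3 in TRB cells, and PRIM1 and PCNA from -0.45 to 0.58 and from -0.35 to 0.20 between cells with T3. For T3 in TRB cells MCM6 went from -0.04 to 0.01 (DESeq2), 0.01 (its size factors) and 0.01 to 0.10 (without TRB vehicle replicate 1, TRB T3 replicate 1, 0.07, or TRB T3 replicate 3). PRIM1 went from 0.24 to -0.52 without TRB T3 replicate 2, with and without EV T3 replicate 3, -0.52 with GC offsets, with or without the replicate block, -0.50 with GC offsets without TRB T3 replicate 2 and -0.53 with GC offsets in the compared groups. Between cells with T3, PRIM1 went from 0.31 to -0.45 without TRB T3 replicate 2, -0.50 without EV T3 replicate 3 as well, -0.51 with GC offsets with or without the block, -0.46 with GC offsets without TRB T3 replicate 2 and -0.50 in the compared groups. PCNA went from 0.02 to -0.35, -0.36, -0.34, -0.31 and -0.32 in the same order, to -0.03 with the replicate block and to -0.01 without EV T3 replicate 2. Of the other values for single genes under an alternative, 379 kept their direction and their side of the threshold, 72 passed it and 4, all of MCM3 between cells with T3, no longer did. With all 12 libraries the interval lay within 2-fold for 16 to 33 of the 46 genes in a contrast, and for 40 to 46 without TRB T3 replicate 2.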
